A study of Mus musculus with 6 samples.

Results

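The array of Ly6G+ splenic neutrophils from wild-type (WT) mice was set against the array of peritoneal macrophages from WT mice that carried no TNF label. These arrays were chosen by their labels alone and are 2 of the 6 arrays of the study. The neutrophils were taken from splenocytes with magnetic beads against Ly6G, a surface protein of mature mouse neutrophils. The macrophages came from the peritoneal cavity 3 days after an injection of thioglycollate, a sterile irritant that draws leukocytes into the cavity. WT mice were TIARP+/+ on C57BL/6, and no treatment was labelled for the splenic cells. The same contrast was also read on the neutrophil and macrophage arrays of TIARP-/- mice (KO) on C57BL/6, handled alike per the labels. TIARP, the product of Steap4, is a TNF-induced membrane metalloreductase. In the WT pair, cell type, organ, irritant and isolation method differed together and cannot be told apart. Whether the macrophages without TNF were kept in culture before RNA was taken is not given in the labels, so a difference may also hold freshly taken cells against cultured ones. Each group had 1 array, labelled with sample numbers that run from 1 to 3, and the labels do not say whether RNA of several mice was pooled on it. No difference below therefore has a replicate check, and no p-value is given. Animal ages were not given in the sources used here.

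Neutrophils are short-lived phagocytes that leave the marrow with most of their granule proteins already made, and carry them in azurophil, specific and gelatinase granules named in the order of their synthesis. Macrophages are long-lived phagocytes that digest what they engulf in acid lysosomes, handle its lipid and iron, and secrete chemokines and matrix enzymes. Peritoneal macrophages drawn in by thioglycollate are largely derived from recruited monocytes, whereas red pulp macrophages of the spleen clear aged red cells and recycle their iron.

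Values below are log2 levels, that is, the log2 processed signal of a gene's probe relative to the 75th percentile of its array, and log2 differences, WT neutrophil minus WT macrophage. A gene was called higher or lower when the difference reached 1, a 2-fold change, and the probe was well above background on the brighter array. A fold is given as "at least" if the probe did not clear the background on the array with less signal. For such genes the at-least difference had to reach 1 for a call, and it was the value used in medians. Levels of different genes come from different probes and were compared only between arrays. Of 25569 genes and other transcripts above background on either array, 6627 (25.9%) were higher in WT neutrophils and 4805 (18.8%) were lower. These include 3636 intergenic lincRNA loci, of which 1185 were higher and 310 lower, and features that the files name only by an accession or a probe. All are called genes in the counts below. Counts of list members are to be read against the shares of 25.9% and 18.8%. The difference reached 5 on the log2 scale, upward for 427 genes and downward for 282. The median difference was 0.14, with quartiles at -0.72 and 1.05. Of the genes called, 58.0% were higher, a share that fell to 44.7% after removal of an intensity trend and to 10.8% with spike-in scaling. Spike-in scaling lowered the median difference by 1.57. It rests on 8 spike-in probes, whose unscaled differences ran from -1.42 to 0.94 with an SD of 0.80. Directions below are therefore relative to the 75th percentile of the arrays. The 75th percentile of the signal was 231 on the WT neutrophil array and 490 on the WT macrophage array, and 57.4% and 62.2% of the probes on these arrays were well above background. Among the other probes of called genes, 82.9% differed the same way, and 59.2% also passed the 2-fold rule in that direction.

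Steap4, the gene deleted in the KO mice, had a log2 level of -2.25 in WT neutrophils and -1.49 in WT macrophages, and of -2.64 in KO neutrophils and -2.30 in KO macrophages. It was above background on these 4 arrays, and its WT difference of -0.76 was not past the 2-fold rule. The labels do not say which exons the KO allele lacks, so this probe does not check the genotype. The neutrophil label was checked against 20 markers of mature neutrophils. Of these, 17 were higher in WT neutrophils, against 25.9% of all genes tested, and 0 were lower, with a median difference of 4.44 against 0.14 over all genes tested. Ly6g, the sorted surface protein (probe at chr15:74989023-74989082, mm9), had a level of 1.84 in WT neutrophils and -3.18 in WT macrophages, a 32.4-fold difference. S100a9, the larger subunit of calprotectin (chr3:90496573-90496632, mm9), had levels of 10.23 and 2.60 on the WT neutrophil and WT macrophage arrays, a difference of 7.63. Its partner S100a8 had levels of 9.37 in WT neutrophils and 4.43 in WT macrophages, a difference of 4.93. These genes were thus high in the sorted cells, yet well above background in the macrophages too. Cxcr2, the receptor for neutrophil-attracting CXC chemokines, stood at 2.51 in WT neutrophils and -4.02 in WT macrophages. Differences above 5 were also measured for the surface gene Il1r2, the decoy receptor of interleukin-1 (5.54), for Hdc, which makes histamine (6.40), and for G0s2, an inhibitor of fat breakdown (5.83). The 3 markers within 2-fold were Csf3r, the G-CSF receptor (0.77), the selenoprotein gene Msrb1 (0.12), and Padi4, which citrullinates histones (-0.58). Csf3r had levels of 7.63 in WT neutrophils and 6.86 in WT macrophages. Ly6g has close relatives in the Ly6 family, so cross-hybridisation of its probe was not tested.

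**Figure D1:**
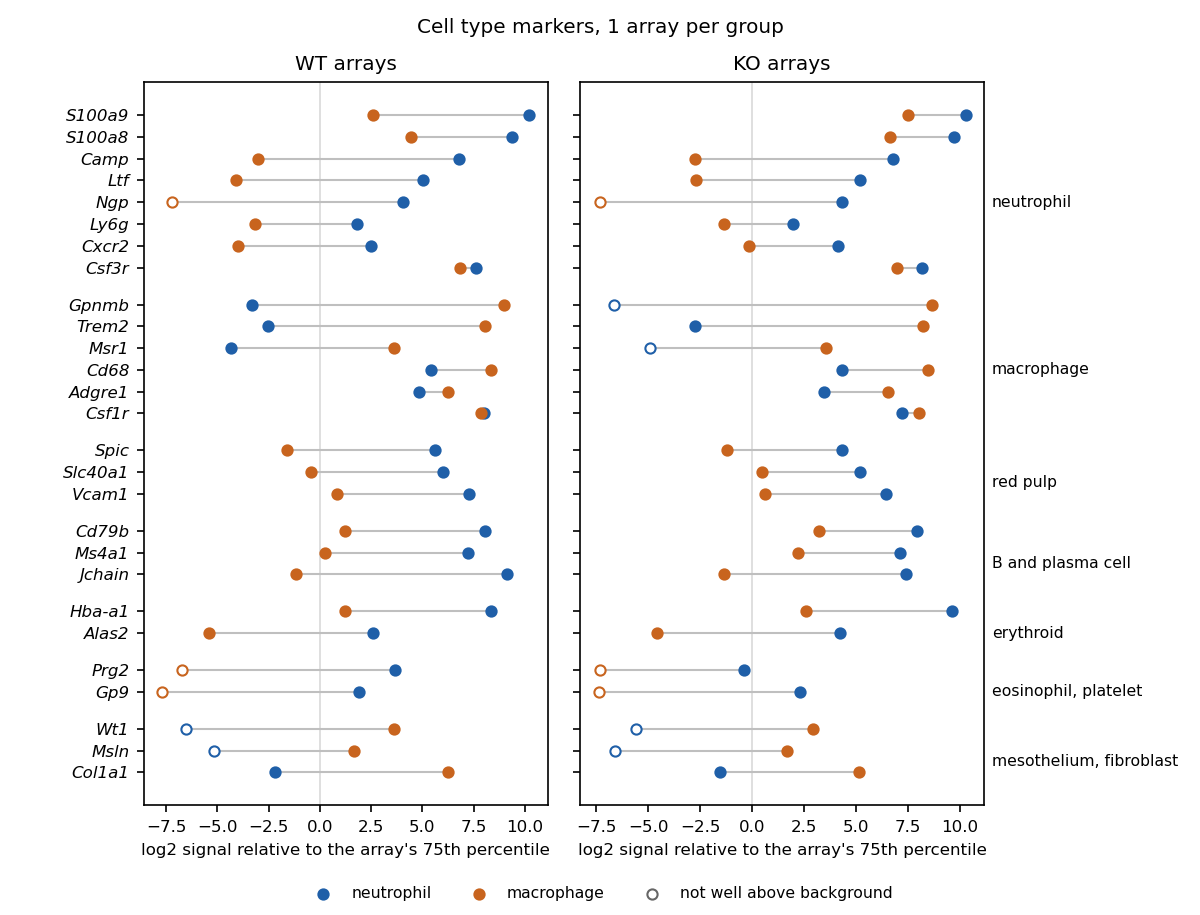
Log2 signal relative to the array's 75th percentile for cell type markers (rows) on the neutrophil array (blue) and the macrophage array (orange) of WT mice (left) and KO mice (right), 1 array per group. Open circles were not well above background, and points are to be compared within a row. On the WT arrays S100a9 stood at 10.23 in neutrophils and 2.60 in macrophages, Gpnmb at -3.33 and 8.98, and Csf1r at 8.03 and 7.84.

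The WT neutrophil array also carried strong signal from genes of other splenic cells, which the Ly6G selection would be meant to leave behind. All 13 B-cell markers were higher in WT neutrophils, with a median difference of 6.39. Cd79b, a signalling chain of the B-cell receptor, had a level of 8.08 in WT neutrophils and 1.24 in WT macrophages, and Ms4a1, which encodes the B-cell surface protein CD20, differed by 6.96. The probes of these 13 genes held 0.169% of all gene-probe signal on the WT neutrophil array and 0.0027% on the WT macrophage array. Of 7 plasma cell genes 4 were higher and Sdc1 was lower. Jchain, which joins IgA and IgM subunits, had 9.14 in WT neutrophils and -1.15 in WT macrophages, a difference of 10.29. Of 15 erythroid genes tested, 13 were higher and 0 lower, among them Hba-a1, an alpha globin (8.34 in WT neutrophils, 1.22 in WT macrophages), and Alas2, which starts haem synthesis in red cell precursors (difference 8.01). Globin genes have near-identical copies, and their probes may not tell them apart. Of 11 platelet genes 7 were higher, Gp9 at least 183-fold, whereas Pf4 was lower by a difference of -4.57. Of 8 eosinophil genes tested 7 were higher and Siglecf was lower (-1.04). The higher ones included Prg2, the major basic protein of eosinophil granules, which stood at 3.65 in WT neutrophils and was not well above background in WT macrophages (at least 615-fold). Of 15 T-cell markers 9 were higher and 1 lower, with a median of 1.56, and of 8 NK-cell markers 5 were higher, with a median of 1.34.

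Red pulp macrophage genes were higher in the splenic cells as well, 5 of 6. Spic, the transcription factor that specifies these macrophages, had a level of 5.64 in WT neutrophils and -1.60 in WT macrophages. Slc40a1, the iron exporter ferroportin, stood at 6.03 in WT neutrophils and -0.44 in WT macrophages, and Vcam1, an adhesion receptor of these cells, at 7.29 in WT neutrophils and 0.85 in WT macrophages. Itgad, the CD11d integrin chain of red pulp macrophages, had a level of 5.24 in WT neutrophils and was not well above background in WT macrophages, at least 1842-fold higher. On the macrophage side, all 12 mesothelial and fibroblast markers were lower in WT neutrophils, with a median difference of -7.12. Wt1, a transcription factor of mesothelium, had a level of 3.60 in WT macrophages and was not well above background in WT neutrophils (at least 463-fold lower). Msln, mesothelin, was at least 116-fold lower and stood at 1.69 in WT macrophages. These 12 probes held 0.0003% of the signal on the WT neutrophil array and 0.0796% on the WT macrophage array. In these bulk samples fewer cells of a type and less RNA per cell cannot be told apart, and the part of other cell types in the differences described here was not tested.

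Specific granule genes, which are made at the myelocyte stage, were higher for 6 of 8 tested and lower for 0, with a median of 5.69. Camp, the cathelicidin antimicrobial peptide (chr9:109749911-109749970, mm9), had levels of 6.77 in WT neutrophils and -3.03 in WT macrophages, an 892-fold difference. Ltf, lactoferrin, stood at 5.05 in WT neutrophils and -4.08 in WT macrophages, 561-fold. Ngp, neutrophilic granule protein, had a level of 4.06 in WT neutrophils and was not well above background in WT macrophages, at least 813-fold. The iron-binding Lcn2 differed by 5.63 and the peptidoglycan receptor Pglyrp1 by 5.74. The other 2 were within 2-fold, the chitinase-like Chil3 at 0.10 and the collagenase Mmp8 at -0.92. Azurophil granule genes, made earlier in the promyelocyte, were listed together with Serpinb1a, which inhibits the azurophil proteases. Of the 6 list members tested 2 were higher and 4 lower, with a median of -1.60. That median was 0.21 with another background correction, which raised the median of all genes tested by 0.23. In the KO pair 2 list members were higher and 2 lower, with a list median of -0.64. The elastase gene Elane had levels of 3.06 in WT neutrophils and 4.86 in WT macrophages, Prtn3, proteinase 3, was at least 11.1-fold lower, and Mpo, myeloperoxidase, was low on both arrays (-4.29 in WT neutrophils, -2.73 in WT macrophages). The inhibitor gene Serpinb1a had the highest difference of the list, 1.98. Gelatinase granule and secretory vesicle genes were higher for 4 of 10 and lower for 2, with a median of 0.68. Alpl, alkaline phosphatase, was higher by 2.63 and Mmp9, gelatinase B, by 1.78, whereas Adam8 (-2.96) and the metal transporter Slc11a1 (-2.24) were lower. Stefins are cysteine protease inhibitors in a cluster of near-identical genes. In the list of stefins and cystatins 7 of 10 tested were higher and 1 lower, with a median of 2.99. In the KO pair 4 members of this list were higher and 2 lower, with a median of 0.11. Stfa1 had levels of 1.24 in WT neutrophils and -5.10 in WT macrophages, Stfa2l1 differed by 6.08 and Stfa2 by 5.40, while Cstb, cystatin B, was lower by a difference of -3.87. The stefin probes may share transcripts, so single members are uncertain.

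The 250 bases before the start of 2 specific granule genes are shown because these genes had some of the largest differences, and because 4 of the 9 list members (44.4%) held the letters TTNNGCAA on either strand there. The C/EBP factors, which drive granule genes in myeloid precursors, are known to bind sequences of this kind. The same letters occurred in 9.56% of 32851 RefSeq promoters and in 10.8% of 27025 genes. Ltf starts after chr9:111019042-111019291 and Ngp after chr9:110419558-110419807, both on the plus strand of GRCm38.p6, and capitals mark the matches. Of the list, Lcn2 and Mmp8 also had a match, and Camp had none.
Ltf: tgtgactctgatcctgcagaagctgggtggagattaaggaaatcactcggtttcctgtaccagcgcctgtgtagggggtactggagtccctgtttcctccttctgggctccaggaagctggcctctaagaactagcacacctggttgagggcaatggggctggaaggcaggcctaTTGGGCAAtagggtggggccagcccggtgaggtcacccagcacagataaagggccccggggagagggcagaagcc
Ngp: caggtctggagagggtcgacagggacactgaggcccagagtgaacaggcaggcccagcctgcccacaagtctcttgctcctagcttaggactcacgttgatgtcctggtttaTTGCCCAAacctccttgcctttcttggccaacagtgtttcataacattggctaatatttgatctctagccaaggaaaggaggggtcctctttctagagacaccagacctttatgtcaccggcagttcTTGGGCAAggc

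Of the factors themselves, Cebpe, which drives specific granule genes, had levels of 2.51 in WT neutrophils and 2.06 in WT macrophages, and Cebpd had 6.09 in WT neutrophils and 4.81 in WT macrophages, a difference of 1.27. Cebpa was lower by a difference of -4.49. A match of letters is a description of the sequence and shows no binding.

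General macrophage markers were lower in WT neutrophils for 16 of 20, higher for 1, with a median of -2.09. Gpnmb, a membrane glycoprotein of lipid-laden and lysosome-rich macrophages (chr6:49006386-49006445, mm9), had levels of -3.33 in WT neutrophils and 8.98 in WT macrophages. This 5092-fold difference was the largest decrease among genes above background on both arrays. Trem2, a lipid-sensing receptor, stood at -2.53 in WT neutrophils and 8.07 in WT macrophages, and Msr1, a scavenger receptor, at -4.34 in WT neutrophils and 3.60 in WT macrophages. Other markers differed less. Cd68, a late endosomal glycoprotein, had levels of 5.42 in WT neutrophils and 8.37 in WT macrophages, a difference of -2.95, and Adgre1, a widely used macrophage surface marker, had 4.84 in WT neutrophils and 6.28 in WT macrophages, a difference of -1.43. Csf1r, the receptor for the macrophage growth factor, had 8.03 in WT neutrophils and 7.84 in WT macrophages, and its difference of 0.19 was within 2-fold. Mrc1, the mannose receptor (0.50), and Mertk, a receptor for dying cells (-0.54), were within 2-fold too, and Axl, a kinase of the same family as Mertk, was higher by 2.16. Red pulp macrophage genes were higher on the same neutrophil array, with a median of 4.97, and the part of such cells in these values was not tested. Lyz2, lysozyme 2, stood at 3.40 in WT neutrophils and 8.12 in WT macrophages, although lysozyme is made by both cell types, and it has a close copy in Lyz1 (-1.17).

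Of 11 resident peritoneal macrophage markers 6 were lower in WT neutrophils and 2 higher, with a median of -3.21. Gata6, the transcription factor of resident peritoneal macrophages, was at least 138-fold lower and stood at 1.86 in WT macrophages, and Prg4 was at least 149-fold lower. Both are also expressed in mesothelium, whose markers were on the same array. Fn1, fibronectin, had levels of -1.79 in WT neutrophils and 8.28 in WT macrophages. Timd4, a phosphatidylserine receptor of tissue macrophages, was higher by 4.04, and Cd5l, a secreted protein of tissue macrophages, was level at 6.37 in WT neutrophils and 6.74 in WT macrophages. Receptors and bridging proteins for dying cells and modified lipoproteins were lower for 13 of 21 and higher for 4. Lower members included Stab1 (-7.04), the fatty acid receptor Cd36 (-5.78), Mfge8 (-4.64) and Gas6 (-3.66). Stab2, a hyaluronan and phosphatidylserine receptor of spleen and liver sinusoidal endothelium, was higher by 7.40. Of 13 genes of alternative activation 3 were higher and 3 lower, shares near those of all genes tested. Arg1, arginase, had a level of 7.67 in WT macrophages and was not well above background in WT neutrophils, at least 7773-fold lower. Retnla was at least 216-fold lower, whereas the lectin gene Mgl2 was higher by 2.14.

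Lysosomal genes were lower in WT neutrophils nearly throughout. Of 34 lysosomal hydrolases and membrane proteins, 29 were lower and 0 higher, with a median of -2.23, and all 34 were above background on both arrays. Ctsl, cathepsin L, had levels of 3.85 in WT neutrophils and 9.33 in WT macrophages, and Ctsk, cathepsin K, had -2.90 in WT neutrophils and 5.76 in WT macrophages. Cd63, a tetraspanin of late endosomes, differed by -4.89, and Lipa, the acid lipase that frees cholesterol from its esters, by -3.77. The enzymes within 2-fold were Acp5 (0.07), Ppt1 (-0.09), Ctsc (-0.50), Man2b1 (-0.61) and Ctsh (-0.97). Ctsc activates the granule proteases of neutrophils. The vacuolar proton pump, which acidifies lysosomes, was lower for 15 of 16 subunits, with a median of -2.04 and no member higher. The catalytic subunit gene Atp6v1a stood at 2.30 in WT neutrophils and 5.81 in WT macrophages. Atp6v0d2, a subunit variant of macrophages and osteoclasts, was at least 899-fold lower. The only subunit within 2-fold was Atp6v1f (-0.11). Of the MiT/TFE factors, which activate lysosomal genes, Mitf was lower (0.76 in WT neutrophils, 4.51 in WT macrophages), as were Tfe3 (-1.36) and Tfec (-1.33), whereas Tfeb was within 2-fold (0.53).

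**Figure D2:**
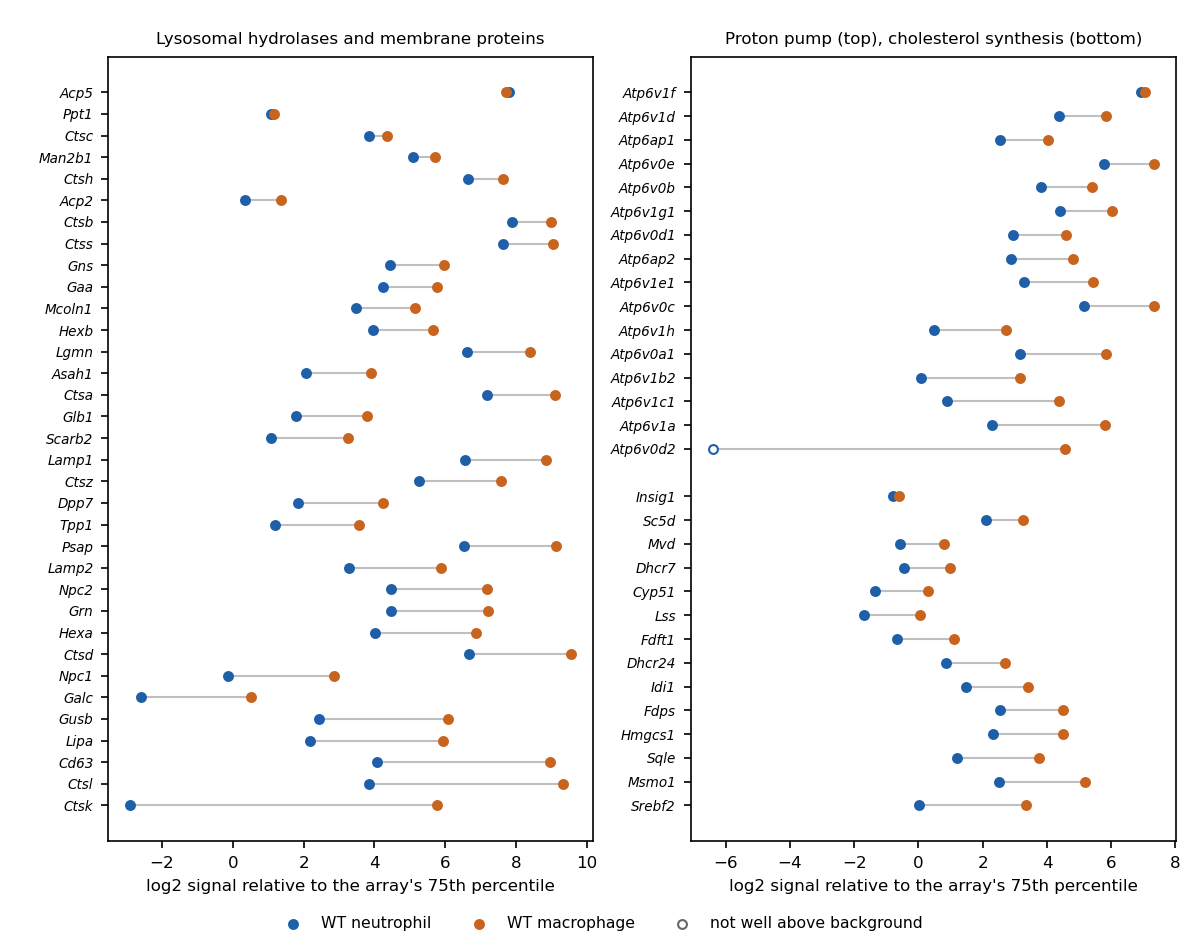
Log2 signal relative to the array's 75th percentile on the WT neutrophil array (blue) and the WT macrophage array (orange) for 34 lysosomal genes (left) and for the 16 proton pump genes and 14 of the cholesterol synthesis genes (right), ordered within each list by the difference. Open circles were not well above background. For every gene shown but Acp5 the neutrophil point lies left of the macrophage point.

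The MiT/TFE factors are known to recognise the letters TCACGTG. These letters, read on either strand in the 250 bases before a start, were found in 8 of 28 lysosomal genes with a RefSeq promoter (28.6%), and in 2 of 11 pump genes (18.2%). They were in 3.13% of all 32851 promoters and in 3.58% of genes. The 8 genes were Ctsa, Ctsd, Dpp7, Gaa, Glb1, Lamp1, Lgmn and Mcoln1, and each was lower in WT neutrophils, with differences between -1.52 and -2.90. Of all 34 list members, with or without the letters, 29 were lower, with a median of -2.23. Ctsd encodes cathepsin D and had levels of 6.66 in WT neutrophils and 9.57 in WT macrophages. Lamp1 encodes the main glycoprotein of the lysosomal membrane and had levels of 6.56 in WT neutrophils and 8.84 in WT macrophages. They are shown because they held the motif 3 and 4 times, counting a match on each strand. Ctsd starts after chr7:142387828-142388077 on the minus strand, and Lamp1 after chr8:13158911-13159160 on the plus strand, of GRCm38.p6. Sequences run 5' to 3' along the gene, capitals mark the matches, and a run of 8 capitals holds a match on both strands. In all, 15 motifs were searched, and both of those described were chosen with the differences known.
Ctsd: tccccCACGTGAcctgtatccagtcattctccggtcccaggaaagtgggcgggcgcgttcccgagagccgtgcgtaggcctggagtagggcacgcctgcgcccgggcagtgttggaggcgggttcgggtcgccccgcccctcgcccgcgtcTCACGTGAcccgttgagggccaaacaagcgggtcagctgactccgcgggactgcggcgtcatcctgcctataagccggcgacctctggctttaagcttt
Lamp1: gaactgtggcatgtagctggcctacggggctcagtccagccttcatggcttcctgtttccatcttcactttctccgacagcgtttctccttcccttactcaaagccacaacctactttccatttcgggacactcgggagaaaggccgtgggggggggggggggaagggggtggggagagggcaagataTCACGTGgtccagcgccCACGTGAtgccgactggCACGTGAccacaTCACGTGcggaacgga

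Of 18 genes of lipid uptake, storage and efflux, 12 were lower in WT neutrophils and 2 higher, with a median of -2.9996. Fabp4 and Fabp5, fatty acid carriers, differed by -7.52 and -5.08, Lpl, lipoprotein lipase, by -5.76, and Plin2, the coat protein of lipid droplets, by -5.59. Scd1, a fatty acid desaturase, was higher, with 3.82 in WT neutrophils and -0.91 in WT macrophages, and so was the efflux pump gene Abcg1 (1.04). Of 16 genes of cholesterol synthesis and uptake 14 were lower and 0 higher, with a median of -1.80. The master regulator Srebf2 stood at 0.02 in WT neutrophils and 3.36 in WT macrophages, and the sterol enzyme gene Msmo1 differed by -2.69. Insig1, which holds the regulator in the endoplasmic reticulum, was within 2-fold (-0.18). NRF2 targets, which hold glutathione and thioredoxin systems, were lower for 13 of 16 and higher for 0, with a median of -2.45. Srxn1, sulfiredoxin, differed by -5.76, Prdx1, peroxiredoxin 1, by -3.69, and Nqo1, a quinone reductase, was at least 85.3-fold lower. The transcription factor gene Nfe2l2 itself differed by -1.78. For iron, 8 of 17 genes were lower and 2 higher. Apart from ferroportin (6.47), Steap1 was at least 286-fold lower and Steap2 at least 79.4-fold lower, the transferrin receptor Tfrc differed by -3.06, and both ferritin chains were level (Fth1 -0.18, Ftl1 0.31).

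Of the 5 neutrophil-attracting CXC chemokines tested 2 were higher in WT neutrophils and 3 lower. Cxcl2 had levels of 5.67 in WT neutrophils and 0.34 in WT macrophages, a 40.2-fold difference, whereas Cxcl1 stood at -1.44 in WT neutrophils and 1.93 in WT macrophages. Cxcl5 was at least 519-fold lower and was well above background in WT macrophages, where it stood at 3.77. Among 20 other chemokines 11 were lower and 3 higher, with a median of -1.91. The monocyte attractant genes Ccl2 and Ccl7 were lower, Ccl2 with -1.76 in WT neutrophils and 5.58 in WT macrophages and Ccl7 at least 288-fold, and Ccl9 differed by -6.72. Cxcl9, an interferon-gamma target, was at least 53.6-fold higher, and Cxcl10 (2.31) and Ccl3 (1.04) were higher too. Il1b, interleukin-1 beta, had levels of 8.11 in WT neutrophils and 0.58 in WT macrophages, a 185-fold difference. Of 20 genes of the interleukin-1 family and inflammasome, Il1b included, 6 were higher and 6 lower, with a median of 0.29. Among them Il1f9, an interleukin-36, differed by 5.98, Il18 by 2.40 and the inflammasome sensor Nlrp3 by 1.78. The signalling receptor Il1r1 differed by -6.24 and the receptor antagonist Il1rn by -2.15, opposite to the decoy receptor above. Caspase 1 and gasdermin D, which cut and release interleukin-1 beta, were level (Casp1 -0.43, Gsdmd -0.10). Among 17 cytokines and growth factors tested 6 were higher and 6 lower. Higher members included Osm, oncostatin M (3.26), Il10 (2.53) and Tnf (1.66), and lower ones Il6 (at least 65.8-fold), Igf1 (-2.35), Vegfa (-2.28) and Csf1 (-1.73).

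Of 20 chemoattractant receptors 9 were higher in WT neutrophils and 7 lower. Cxcr1 (4.35), Cxcr2 (6.53) and Cxcr4 (2.41), a marrow-retention receptor, were higher. Cxcr5, Ccr6 and Ccr7, which guide lymphocytes and dendritic cells, were also higher, by 7.00, 5.54 and 3.79, beside the B-cell markers on the same array. The complement receptors C3ar1 (at least 215-fold) and C5ar1 (-3.60), and the monocyte receptors Ccr2 (-2.50) and Cx3cr1 (-2.09) were lower. Of the formyl peptide receptors Fpr2 was higher by 1.17 and Fpr1 was within 2-fold (0.64). Cytokine receptors were lower for 10 of 19, and Il17ra (1.37) was the 1 higher. Csf2rb, the shared chain of the GM-CSF receptor, differed by -2.15 and Tnfrsf1b, TNF receptor 2, by -3.50, whereas Tnfrsf1a was within 2-fold (-0.86). Of 8 Fc receptors tested 2 were higher and 4 lower. The higher ones were Fcer2a, the low-affinity IgE receptor of B cells (6.20), and Fcgrt, the neonatal IgG receptor (1.25). The IgG receptors Fcgr1 (-2.75), Fcgr3 (-1.53) and Fcgr2b (-1.42) were lower, and Fcgr4 was within 2-fold (-0.30). Of 18 Toll-like receptors and adaptors 3 were higher and 4 lower, shares near those of all genes tested. Tlr2 was higher (1.09), Tlr4 (-1.48) and its coreceptor Cd14 (-1.41) were lower, Tlr13 differed by -2.99, and Tlr12 by 5.67. The C-type lectin receptors had 3 of 16 higher and 5 lower, with Clec4d lower by -2.40 and Clec7a, dectin-1, within 2-fold (-0.67).

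Among 21 integrins and adhesion molecules 8 were higher in WT neutrophils and 7 lower. The beta-2 integrin chain Itgb2 differed by -2.51 and its partner Itgax by -2.15, whereas Itgam was higher by 1.11 on its brightest probe and lower by -0.71 as the median of its 3 probes. Matrix-binding chains were lower, Itga5 by -4.66, Itgav by -3.30, Itga6 by -3.04 and Itgb1 by -2.70. Complement genes were higher for 6 of 21 and lower for 9. The component genes C4b and C3 differed by -2.69 and -1.35, while Cr2, the complement receptor of B cells, differed by 7.85 and the C1q chains were within 2-fold (C1qa -0.40, C1qb -0.92, C1qc -0.03). Of 14 genes of MHC class II presentation 12 were higher and 1 lower, with a median of 3.05. H2-Ab1 had levels of 9.14 in WT neutrophils and 6.27 in WT macrophages, and the transactivator Ciita had 1.32 in WT neutrophils and -2.92 in WT macrophages. H2-Ob and H2-Oa, restricted largely to B cells, differed by 7.11 and 6.65. B-cell markers moved with these genes, and the part of B cells in them was not tested.

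**Figure D3:**
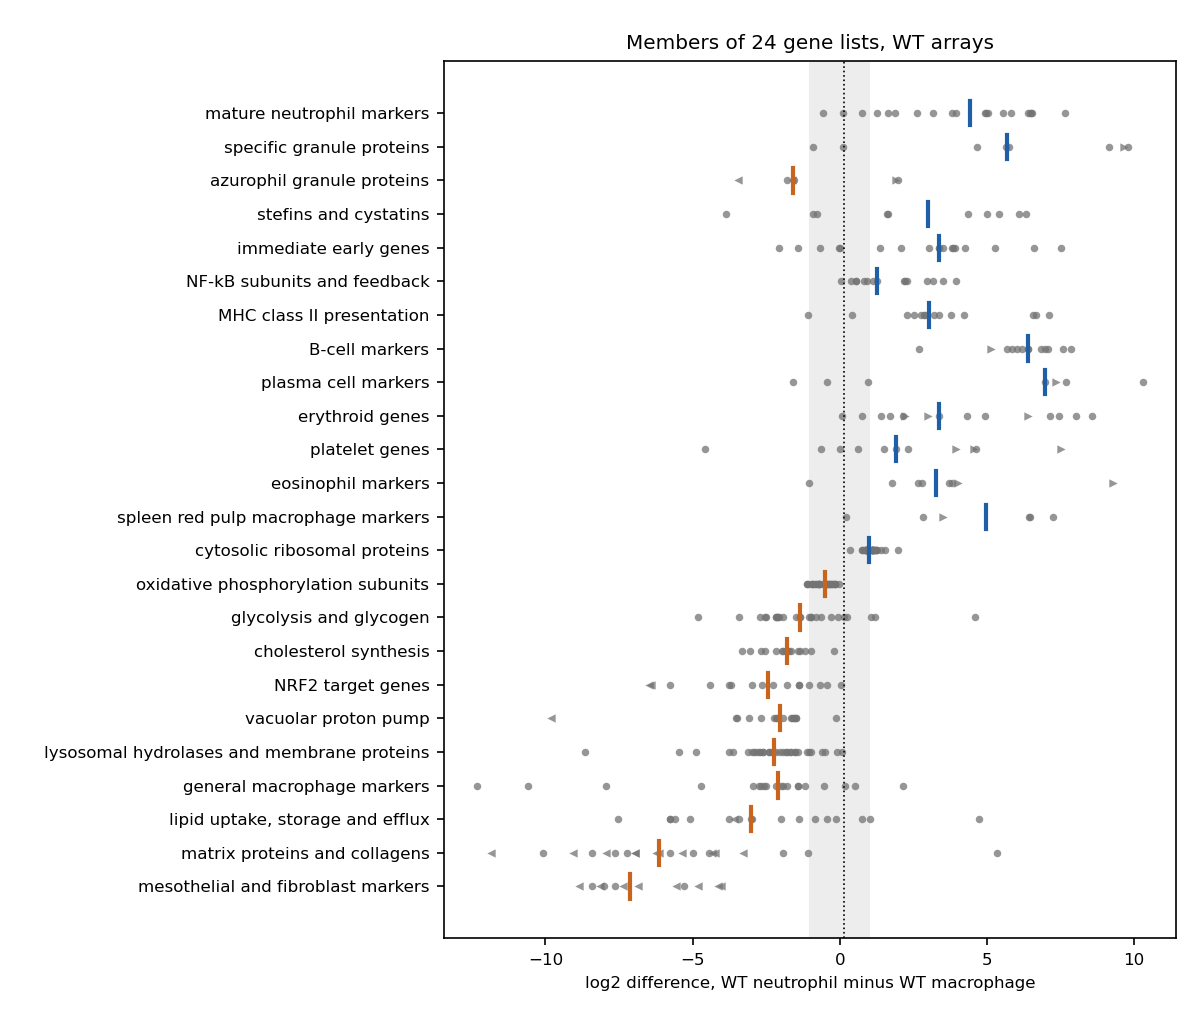
Log2 difference, WT neutrophil minus WT macrophage, of each tested member (grey) of 24 gene lists. Triangles are at-least values, coloured bars are list medians, the grey band marks differences within 2-fold and the dotted line is the median of all genes tested (0.14). B-cell markers lie on the right with a median of 6.39, and mesothelial and fibroblast markers on the left with a median of -7.12.

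Transcription factors of myeloid cells were higher for 10 of 30 and lower for 8. Gfi1, a repressor needed for neutrophil formation, had levels of 3.72 in WT neutrophils and -2.72 in WT macrophages, and Klf2 (4.94), Irf4 (6.29) and Nr4a1 (6.60) were higher too. Irf4 is also a factor of B and plasma cells. Beside Mitf and Gata6, the factors Maf (-1.68) and Zeb2 (-2.11) were lower, and Spi1, which encodes PU.1, was level (-0.35). Of 18 immediate early genes, which respond within minutes to stimuli, 13 were higher and 2 lower, with a median of 3.37. Fos had levels of 7.39 in WT neutrophils and 3.59 in WT macrophages, Egr1 had 7.71 in WT neutrophils and 2.44 in WT macrophages, and Fosb differed by 7.51. Egr2 (-1.41) and Fosl1 (-2.05) were lower. The heat shock gene Hspa1a, which has a near-identical copy, with 5.02 in WT neutrophils and -2.49 in WT macrophages, was high on the same array, whereas most of the 13 heat shock genes were within 2-fold, with 3 higher and 1 lower. The isolation differed between the arrays, and its part in these genes was not tested. NF-kB subunits and feedback genes were higher for 9 of 15 and lower for 0, with a median of 1.28. The inhibitors Nfkbia (2.95) and Tnfaip3 (2.29) were higher, and the subunit Rela was level (0.37). Interferon-stimulated genes had no common direction, with 8 of 29 higher, 7 lower and a median of -0.11.

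Of 40 cytosolic ribosomal proteins 21 were higher and 0 lower, with a range between 0.34 and 1.98 and a median of 1.00, which lies on the 2-fold threshold. In the KO pair 4 of the 40 were higher and 0 lower, with a median of 0.77. The median of the WT pair was 0.34 after removal of the intensity trend. All 29 oxidative phosphorylation subunits had negative differences, with a median of -0.49, but only 3 were past 2-fold, and of 22 citric acid cycle genes 3 were lower and 0 higher, with a median of -0.56. Glycolysis genes spread more, with 15 of 26 lower and 3 higher. Ldhb, a lactate dehydrogenase chain, differed by -4.83, Pgam1 by -3.42, Hk3 by -2.72 and Pkm by -2.12, and the glucose transporter Slc2a3 by 4.61. Cell cycle genes were lower for 12 of 29 and higher for 0, with a median of -0.93. Cdk1 stood at -0.39 in WT neutrophils and 1.65 in WT macrophages, and Cdkn1a, a cell cycle inhibitor, differed by -3.45. Of 10 nuclear lamina and envelope genes 3 were higher and 2 lower, shares near those of all genes tested, with a median of 0.22. Lamin A was lower (Lmna, 1.40 in WT neutrophils and 5.28 in WT macrophages), and lamin B1 (Lmnb1, 2.60) and the lamin B receptor Lbr (2.15) were higher. Low lamin A and high lamin B receptor are known features of the lobed neutrophil nucleus, but the part of other cell types in these values was not tested. Of 7 NADPH oxidase genes 1 was higher and 1 lower, shares below those of all genes tested. The cytosolic Ncf1 (-0.03) and Ncf4 (0.06) were within 2-fold, Rac2 was higher (1.68) and the membrane catalytic chain Cybb was lower (-1.86). In the BCL2 family 5 of 13 tested were higher and 5 lower, with Bcl2 at 2.35, Bcl2l1 at -2.69 and Mcl1 at -0.03. In eicosanoid synthesis 4 of 15 were higher and 8 lower. Ptgs2, the inducible cyclooxygenase, differed by 2.36 and Alox5, 5-lipoxygenase, by 1.01, while Alox15 was at least 32.6-fold lower.

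Of 21 matrix proteins and collagens 20 were lower in WT neutrophils and 1 higher, with a median of -6.13. Spp1, osteopontin, was at least 3696-fold lower, Col1a1 stood at -2.17 in WT neutrophils and 6.25 in WT macrophages, and Sparc at 1.32 in WT neutrophils and 8.53 in WT macrophages. Col14a1, a fibril-associated collagen, was higher by 5.35. Of 20 matrix proteases and inhibitors 15 were lower and 2 higher. Mmp12, macrophage elastase, was at least 1251-fold lower, Timp1 differed by -9.02 and Mmp14 was at least 119-fold lower. Collagens and Sparc are fibroblast products, and the mesothelial and fibroblast markers moved with them. The part of those cells was not tested. Adamdec1, a metalloprotease of gut and spleen macrophages, was at least 953-fold higher. The largest differences outside these lists included Saa3, an acute-phase protein, at least 10680-fold lower, Emp1 (-10.64), the glycoprotein podoplanin (Pdpn, -9.66), Fam20c, a kinase of secreted proteins (-8.91), and the collagen chaperone Serpinh1 (-8.55). Slc6a8, the creatine transporter, was at least 1484-fold lower and Fabp7 at least 1435-fold. On the other side stood Hcar2, the niacin receptor of neutrophils and macrophages (8.78), Cd69, an early activation antigen of lymphocytes (8.61), Dtx1, a Notch regulator of marginal zone B cells (8.61), Ell3 (8.26), Vpreb3 (7.72), and Bhlha15, a secretory factor of plasma cells (at least 328-fold).

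The KO arrays gave the same contrast without sharing an array with the WT pair. In the KO pair 25173 genes were tested, with 6306 (25.1%) higher and 4890 (19.4%) lower in KO neutrophils. Of the 6627 genes higher in WT neutrophils 4875 (73.6%) were also higher in the KO pair, which is 77.3% of those higher there. Of the 4805 lower, 3804 (79.2%) were also lower in the KO pair, 77.8% of its own. Of the genes higher in the WT pair 47 were lower in the KO pair, and of those lower 13 were higher. Across 24530 genes tested in both pairs the differences correlated with Pearson's r of 0.92 and Spearman's rho of 0.91, given as a description since genes are not independent replicates and the arrays share a slide and a platform. Large differences in both directions were smaller in the KO pair in general. Genes at least 5 higher in the WT pair had medians of 7.21 in the WT pair and 5.58 in the KO pair. Those at least 5 higher in the KO pair had medians of 7.86 in the WT pair and 6.14 in the KO pair. Genes at least 5 lower in the WT pair had medians of -6.04 in the WT pair and -5.34 in the KO pair. Those at least 5 lower in the KO pair had medians of -6.41 in the WT pair and -5.97 in the KO pair. The neutrophil markers had a median of 3.28 in the KO pair, with 18 of 20 higher, against 4.44 in the WT pair. S100a9 had 10.28 in KO neutrophils and 7.52 in KO macrophages, so that its difference was 2.77 there, against 7.63 in the WT pair. Stfa1 had levels of 1.20 in KO neutrophils and 1.08 in KO macrophages, a difference of 0.12, against 6.34 in the WT pair. In both cases the neutrophil arrays were alike and the KO macrophage array was the higher of the macrophage arrays. Over the genes at least 5 higher in the WT pair, both sides differed between genotypes. Their median levels were 3.55 in WT neutrophils and 2.40 in KO neutrophils, and -4.81 in WT macrophages and -3.50 in KO macrophages. Adamdec1 differed by 2.10 in the KO pair and at least 9.90 in the WT pair, and Prg2 by at least 4.90 and at least 9.26. Cd5l was level in the WT pair and differed by -3.67 in the KO pair, with 3.65 in KO neutrophils and 7.32 in KO macrophages. The erythroid genes were at 0.406% of the signal in KO neutrophils and 0.160% in WT neutrophils, and the plasma cell genes at 0.0634% in KO neutrophils and 0.171% in WT neutrophils. Lysosomal genes (median -2.66, 31 of 34 lower), the proton pump (-2.11, 15 of 16 lower) and specific granule genes (4.70, 6 of 8 higher, 1 lower) kept their direction in the KO pair. Set against the TNF-treated WT macrophage array, 6875 genes (27.3%) were higher in WT neutrophils and 5292 (21%) lower, a comparison that shares the WT neutrophil array with the main one.

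**Figure D4:**
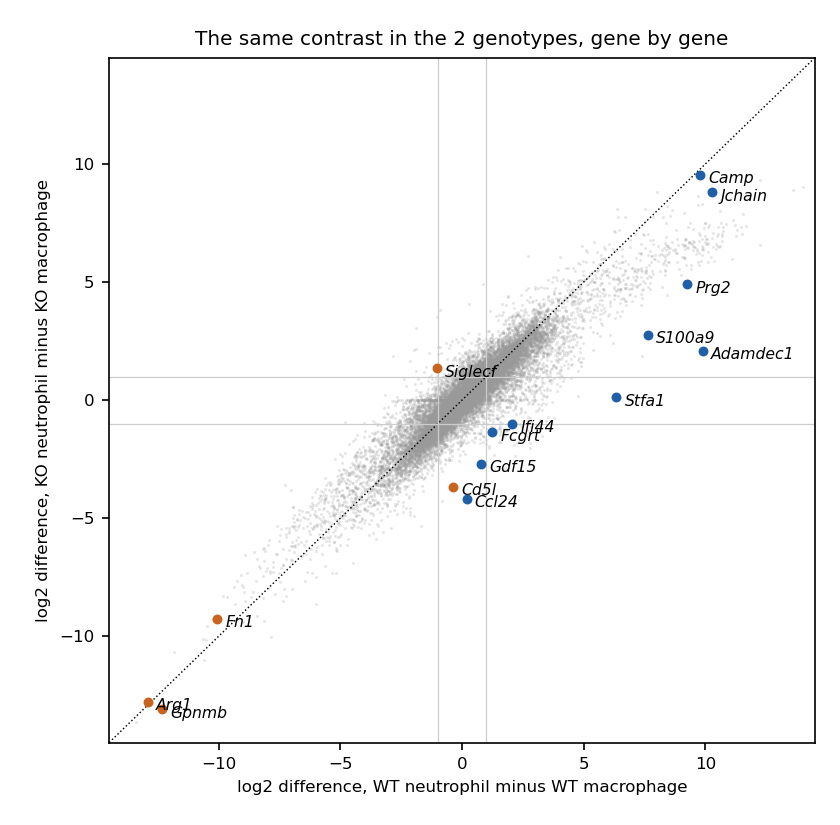
Log2 difference, neutrophil minus macrophage, for each gene tested in both pairs, WT arrays on the x axis and KO arrays on the y axis, with grey lines at 2-fold and a dotted line of equality. Blue and orange points are named genes with a WT difference above and below 0. Camp lies near equality (9.80 in WT, 9.54 in KO), whereas S100a9 (7.63 in WT, 2.77 in KO) and Stfa1 (6.34 in WT, 0.12 in KO) lie well below it.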

How the data were processed

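Total RNA was hybridised in 1 colour (Cy3) to 6 Agilent mouse arrays on 1 slide. The deposited files hold the scanner's spot intensity per probe, background-subtracted by Agilent Feature Extraction, per the file headers. Probe coordinates are those of mm9 in the files. Control spots and outlier-flagged spots were left out, spots of a probe were averaged, and the 75th percentile of each array was subtracted on the log2 scale. A gene was represented by its brightest probe over all arrays, and 34740 genes were measured with 55680 probes. Symbols were updated through RefSeq accessions where possible. At-least folds use the array's lowest signal well above background, or the probe's own signal if higher. Named genes were marker genes, list members, the 12 largest differences each way among brighter genes, and the 6 largest at-least folds each way, the last 2 sets among usual gene symbols only. Clones, accessions, predicted genes and probe names, some with larger increases, were passed over. The members and gene lists were chosen with earlier results of these data known. No spot was saturated, and having 1 array per group limits the precision. Some list members are counted in their lists but not reported singly here. The calling steps were run on simulated data with spot noise and planted differences past the 2-fold rule in bright probes. That run checks the code and holds no variation between arrays or animals, so it gives no error rate for these calls. The processing was done with Python 3.11.15, pandas 2.3.3, numpy 2.4.6, statsmodels 0.14.6, R 4.3.3 and limma 3.58.1. Alternatives were other scalings, normexp background correction with an offset of 50, other filters on dim probes, the median of a gene's probes and removal of an intensity trend.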

Additional observations from a re-analysis of the deposited data

Results flagged for a closer look

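For 3 named genes the WT and KO pairs passed the 2-fold rule in opposite directions. With 1 array per group these differences between pairs were not tested. Fcgrt, the neonatal Fc receptor, differed by 1.25 between WT neutrophils and WT macrophages and by -1.36 between KO neutrophils and KO macrophages. Ifi44, an interferon-stimulated gene, differed by 2.08 in the WT pair and by -1.01 in the KO pair. Siglecf, a lectin of eosinophils and some macrophages, differed by -1.04 in the WT pair and by 1.34 in the KO pair.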

How the results depend on the processing

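No paired analysis was possible because each group has 1 array. Values of gene lists and genes are given relative to the shift of all genes under quantile normalization and spike-in scaling only. The other settings had no shift subtracted. Of these, normexp moved the median of all genes by 0.23, leaving out the dim filter by 0.40 and trend removal by -0.16. Spike-in scaling left 1973 genes higher and 16219 lower, with a median over all genes of -1.44, and without a filter on dim probes 13591 were higher. The median over all genes was -0.012 under quantile normalization and -0.026 once the intensity trend was taken out. With normexp, the median of azurophil granule proteins was 0.21 and that of cytokines and growth factors 0.31, and differences were 0.33 for Clec12a, 0.41 for Cmklr1, 0.31 for Csf3, 0.43 for Ctsg, 0 for Mmp3 and 0.40 for Tpsab1. With the median of a gene's probes, the BCL2 family median was 0.27, and differences were -0.90 for Hk1, -0.71 for Itgam, -1.02 for Kdr, 3.97 for Ms4a4c, -0.080 for Runx1, -1.05 for Tpsb2 and -2.66 for Vcan. Ccl22 was -1.18 without the filter and -1.20 with the trend removed. The medians and differences given here had the opposite sign in the report's setting, except that Mmp3 came to 0 and Ccl22 was at 0 there, and the cause was not tested. Beyond these changes of sign, 15 of 59 list medians moved past the margin set for no change with normexp. In that setting 43 named genes fell below the 2-fold rule, against 40 under quantile normalization and 47 with the trend removed. Genes dim on either array have only a bound, and their folds rest on the background estimate.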
